A study of Oryza sativa with 12 samples.

Results

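Leaf polysome-bound mRNA of the rice cultivars APO and IR64 was compared under drought, using 6 of the 12 libraries of the series. The members were chosen by their labels alone: 3 libraries of APO plants in drought stress and 3 of IR64 plants in drought stress, and the other 6 libraries are 3 well-watered controls of each cultivar. The series title calls APO tolerant and IR64 susceptible and gives the drought level as 50%. No transgene, mutation or chemical separates the groups, so each compares one inbred cultivar with the other at a single drought level. Nothing in the labels ties each library to plants of its own, so the p-values below measure the spread between libraries, which may be technical. No total RNA entered the comparison, and a level below is the share of a transcript among polysome-bound messages and not a translational efficiency.

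Polysomes are messages loaded with several ribosomes, and sequencing the RNA that sediments with them samples transcripts that are being translated. Drought raises abscisic acid in leaves, and this hormone works through receptors, phosphatases and SnRK2 kinases to induce protective proteins such as dehydrins and other late embryogenesis abundant (LEA) proteins, while the photosynthetic messages of a drying leaf commonly decline. APO is an upland-adapted rice and IR64 a lowland-adapted one, so their drought leaves are often set side by side in breeding work.

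The files give TPM, the abundance of each transcript per length on a fixed library total, and ribosomal RNA took a very unequal share of it. The 37849 nuclear loci, which exclude ribosomal RNA and lie on the 12 chromosomes, held 1.21% of the deposited TPM in the first APO drought library, 13.3% in the second and 76.4% in the third. In IR64 drought 1, 2 and 3 they held 31.7%, 38.7% and 12.3%. The cultivars overlapped in this share (30.3% ± 40.4 (SD, n = 3) against 27.6% ± 13.7 (SD, n = 3), two-sided exact permutation p = 0.9, the smallest possible being 0.1). Every level below is therefore TPM rescaled to a sum of 1000000 over nuclear loci, called nuclear TPM (nuclear-scaled TPM in the plots), and the absolute read depth is unknown. A relative depth index, the ratio of coverage to FPKM that the files imply, was 2.17, 1.31 and 3.85 in the APO drought libraries and 0.675, 2.36 and 0.608 in the IR64 drought libraries. Loci listed above 0 numbered 9976, 22789 and 31980 in APO and 20058, 23864 and 15357 in IR64. The index covers ribosomal RNA too, so a low nuclear share, such as 13.3% in APO drought 2, lowers the depth over nuclear loci further. A value of 0 in the library labelled APO drought 1, in APO drought 2 or in IR64 drought 1 or 3 therefore carries less weight than in APO drought 3 or IR64 drought 2.

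One library did not carry its cultivar's expression pattern. Of 65 genes that were high in all APO controls and at least 8-fold lower in all IR64 controls, 49 and 61 exceeded 1 nuclear TPM in APO drought 2 and 3, but 2 did so in the library labelled APO drought 1. Of 20 genes typical of IR64 by the same rule, 6 exceeded 1 nuclear TPM there, against 4 and 3 in the other APO drought libraries and 18, 20 and 14 in IR64. Its Spearman correlation over 26192 genes, given as a description of libraries that share gene composition, was 0.486 and 0.522 with the other APO drought libraries and 0.637, 0.614 and 0.635 with the IR64 drought libraries. Its values with the well-watered libraries were 0.598, 0.590 and 0.470 for APO and 0.558, 0.555 and 0.619 for IR64. Closeness to IR64 was not particular to this library. APO drought 3 correlated at 0.766 with APO drought 2 and at 0.774, 0.836 and 0.699 with the IR64 drought libraries. A swapped label, mixed material and a library limited by its nuclear share of 1.21% cannot be told apart here. Other causes were not tested. The IR64 drought libraries fit their label by these genes. Overall counts are therefore given with all 6 libraries and with 5, leaving out the library labelled APO drought 1. Values for genes and gene groups come from the 5 libraries unless 6 are named, and the level in the library labelled APO drought 1 is always printed first among the APO values.

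**Figure D1:**
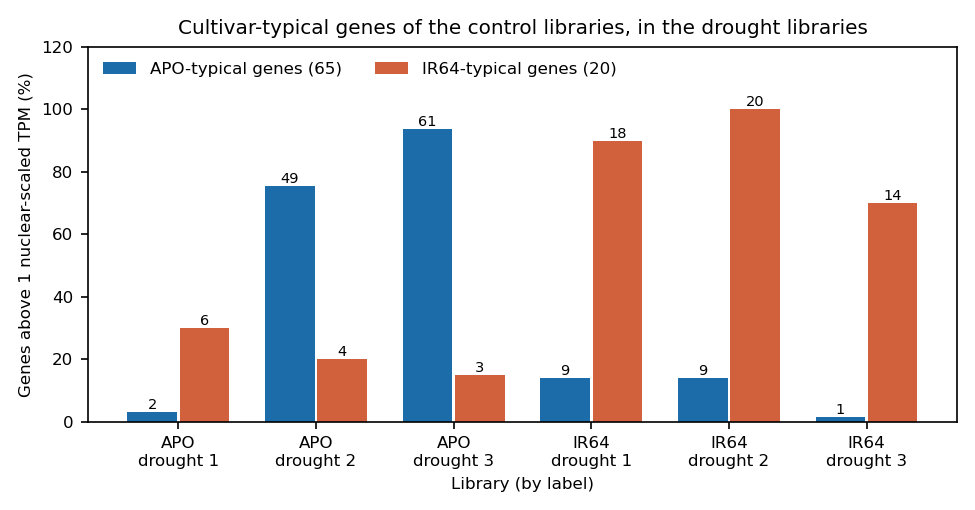
Percent of 65 APO-typical and 20 IR64-typical genes (chosen in the control libraries) that exceeded 1 nuclear TPM in each drought library, as bars starting at 0. The library labelled APO drought 1 shows 2 of 65 APO-typical genes, against 49 and 61 in the other APO drought libraries.

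With all 6 libraries, no gene of the 23123 tested separated the cultivars after Benjamini-Hochberg adjustment in limma (0% called), so no member of any gene group below was called with 6 libraries. An unadjusted p under 0.05 was reached by 1839 genes, and the smallest adjusted p was 0.486. The values of the 6 libraries did not overlap for 970 genes higher in APO (4.19%) and 2674 lower in APO (11.6%). Without the library labelled APO drought 1, 2272 of 23617 genes passed an adjusted p of 0.05 (9.62%), with 795 higher (3.37%) and 1477 lower (6.25%) in APO. These genes are named "called" below, and these percentages are the background for every gene group. Leaving out APO drought 2 as well left 0 called in limma (3476 at an unadjusted p under 0.05), and leaving out APO drought 3 instead gave 3317 called, of which 2409 were higher in APO. Each of these fits tests an APO arm of 1 library, which is assumed to vary like the IR64 libraries. Leaving out IR64 drought 2 left 1195 called. Scaling moved the balance: 35.0% of the calls were higher in APO in the main fit and 54.6% after median-of-ratios scaling (1227 higher, 1021 lower) and 45.6% after quantile normalization. On the deposited TPM, with no rescaling to nuclear loci, 18 genes were called, 16 higher and 2 lower, and 151 of the 165 genes that the naming rule gives lost their call. A fit of all 4 groups, which differs in model and libraries and not in scaling, called 2815 genes, 45.9% of them higher. The median log2 difference of all genes was 0.02 in the main fit and 0.33 after median-of-ratios scaling, so a gene list is read against that of all genes.

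The 5 genes with the smallest p in the 6-library fit, did not pass adjustment. Os05g0142200 stood at 31.4, 23.1 and 16.4 nuclear TPM in APO drought and 423, 201 and 259 in IR64 drought (-3.56 ± 0.52, SE, adjusted p = 0.486), although it stood at 510, 563 and 1168 in APO controls. Os05g0429500 stood at 0, 0 and 5.73 against 151, 123 and 73.8, and at 61, 128 and 73 in APO controls. Os04g0477900 and Os05g0103800 were listed at 0 in all APO drought libraries, and the first of them stood at 48.5, 53.8 and 50.5 in IR64. The remaining gene is OsPR1b (Os01g0382000), described below. In all 5 the 3 APO libraries did not overlap IR64, and the files give the first 4 no symbol.

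Protective proteins of the LEA class were called higher in APO far more often than lower. Of 34 LEA and dehydrin genes, 32 passed the filter on low levels, of which 15 were called higher (3.37% of all genes) and 1 lower (6.25% of all genes), and the median log2 difference was 2.60 in 5 libraries and 1.66 in 6. The dehydrin RAB21 (Os11g0454000; chromosome 11, 15327769 to 15328657) stood at 21.6, 1121 and 1103 nuclear TPM in APO and at 58.1, 43.7 and 59.8 in IR64. APO drought 2 and 3 lay far above every IR64 library, and the library labelled APO drought 1 lay below them all. The log2 difference was 4.36 ± 0.29 (SE, adjusted p = 0.000414) in 5 libraries and 2.48 (adjusted p = 0.64) in 6. OsLEA25, encoded on the same chromosome (15223376 to 15224746), stood at 0, 6198 and 4284 in APO against 258, 519 and 445 in IR64, and its difference of 3.72 ± 0.45 (SE, adjusted p = 0.00187) turned to -0.39 (adjusted p = 0.97) when the first library was included. OsLEA16 showed 44.6, 1672 and 1001 in APO and 62, 96.2 and 179 in IR64 (3.65 ± 0.46, SE, adjusted p = 0.00213). OsLEA4 showed 30.6, 507 and 340 in APO and 42, 24.1 and 16.2 in IR64 (3.97 ± 0.42, SE, adjusted p = 0.0011).

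Among the most abundant LEA messages were the dehydrin Rab16A and OsLEA3-1, whose overexpression has been used to raise drought tolerance in rice. Rab16A reached 2639, 44915 and 22006 nuclear TPM in APO and 3049, 3273 and 5654 in IR64, and with a difference of 3.04 ± 0.86 (SE, adjusted p = 0.0628) it missed the threshold. OsLEA3-1 reached 945, 12705 and 9428 in APO and 770, 1033 and 1917 in IR64 and was called (3.25 ± 0.59, SE, adjusted p = 0.0112). Neighbouring dehydrin genes on chromosome 11 (RAB16B, Rab16A and 2 loci named RAB21) are near-identical in part and may share reads. LEA8 was the member called lower, at 245, 96.5 and 96.4 in APO and 494, 207 and 228 in IR64. All 12 libraries place the list median, as log2(nuclear TPM + 1), at 4.34, 8.25 and 8.34 in APO drought, 5.65, 5.07 and 5.94 in IR64 drought, 1.31, 1.47 and 3.83 in APO control and 2.39, 0.93 and 0.87 in IR64 control. The list median was higher in every drought library than in any control library, and highest in APO drought 2 and 3.

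**Figure D2:**
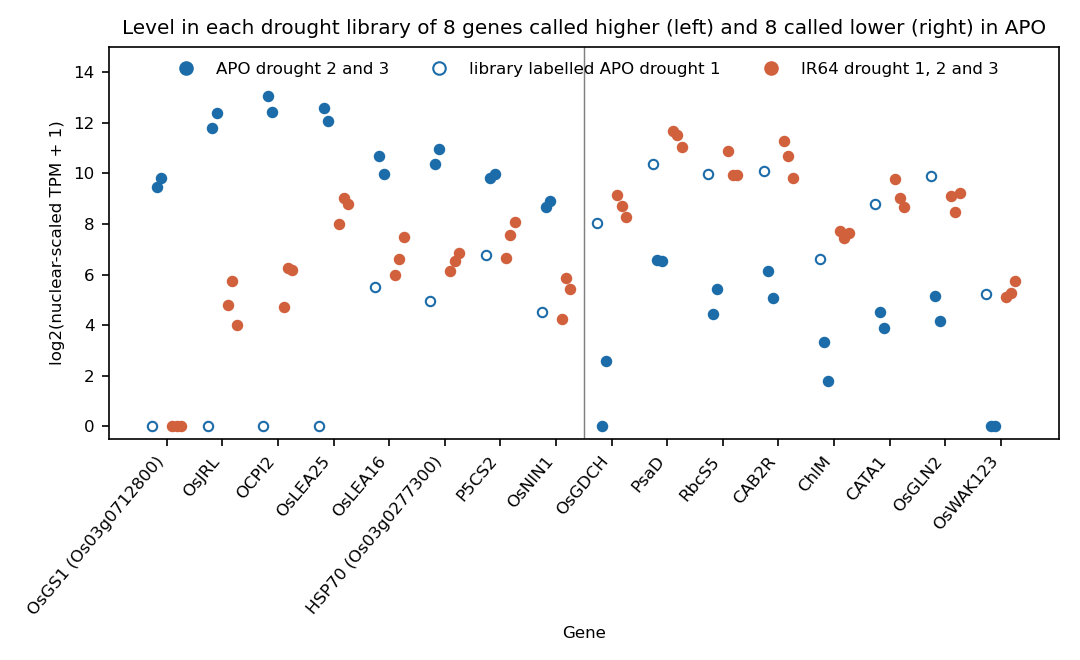
Level of 16 genes in each of the 6 drought libraries, as log2(nuclear TPM + 1), with the library labelled APO drought 1 drawn as an open point. Protective genes such as OsLEA25 and OsLEA16 are high in APO drought 2 and 3, photosynthesis genes such as PsaD and RbcS5 are high in IR64, and for PsaD and RbcS5 the open point lies nearer the IR64 libraries.

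The abscisic acid machinery gave calls in both directions. Among 47 genes of its synthesis, breakdown and signalling, 37 were tested, 3 were called higher and 6 lower, and the median difference was -0.43 (-0.07 after median-of-ratios scaling). OsNCED2 (Os12g0617400), a 9-cis-epoxycarotenoid dioxygenase of the hormone's synthesis, was higher in APO at 0, 55.7 and 41.3 nuclear TPM against 3.94, 7.66 and 5.27 (2.92 ± 0.53, SE, adjusted p = 0.0106). OsNCED1 (Os02g0704000), which carries a symbol of the same enzyme family, was lower at 70.9, 5.66 and 7.33 against 163, 78.4 and 30.5 (-3.32 ± 0.64, SE, adjusted p = 0.0138). The member with the smallest adjusted p was OsABA45, at 106, 970 and 1337 against 125, 173 and 195 (2.81 ± 0.33, SE, adjusted p = 0.00175). The SnRK2 kinases moved both ways: SAPK7 was lower (0, 3.6 and 4.39 against 30.8, 36.6 and 30), SAPK5 was lower (92.6, 16.6 and 24.2 against 109, 103 and 52.5) and SAPK1 was higher (0, 256 and 255 against 51.7, 109 and 96.2). The receptor gene OsPYL/RCAR5 was lower in APO at 66.8, 42.7 and 38.7 against 133, 93.3 and 126, and so was the phosphatase gene OsPP2C08 at 0, 26.2 and 30.5 against 112, 88.8 and 96.

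Heat shock proteins, chaperones that hold or refold unfolding proteins, were more often called higher than lower. Of 61 genes 52 were tested, 10 were called higher and 1 lower, and the median difference was 0.73 in 5 libraries and 0.35 in 6. The gene named HSP70 (Os03g0277300; chromosome 3, 9411494 to 9416082) stood at 29.8, 1333 and 2024 nuclear TPM in APO and at 69, 92.7 and 116 in IR64 (4.17 ± 0.35, SE, adjusted p = 0.000502). Small heat shock proteins followed, with OsHSP18.0-CIII at 0, 389 and 409 against 41.9, 42.8 and 33.7 and Oshsp17.9A at 14.9, 521 and 453 against 77.6, 111 and 75.7. In the heat shock factor gene OsHsfA7 all 3 APO libraries lay above all 3 IR64 libraries, at 113, 91.7 and 98.5 against 22.6, 18.8 and 26.9 (2.03 ± 0.33, SE, adjusted p = 0.00709 in 5 libraries, and 2.11 with adjusted p = 0.5 in 6). HSP101, the disaggregase, was likewise separated in all 6 libraries at 48.5, 99 and 97.9 against 19.2, 20.2 and 31. OsHSP70 (Os03g0821100) was the member called lower, at 207, 35.2 and 38.1 against 117, 153 and 164.

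Compatible solutes are small molecules that cells accumulate against water loss. Of 16 genes of proline, betaine, galactinol and trehalose metabolism 13 were tested, 2 were called higher and 0 lower in limma (1 lower at an unadjusted p under 0.05). P5CS2, which carries out the committed step of proline synthesis, stood at 110, 913 and 1007 nuclear TPM in APO and 99.7, 190 and 273 in IR64 (2.46 ± 0.43, SE, adjusted p = 0.00897), so APO drought 2 and 3 lay above all IR64 libraries and the first APO library among them. OsTPP7, a trehalose-6-phosphate phosphatase known from germination under water and reported missing from IR64, was listed at 0, 16.1 and 23.6 in APO drought and at 0 in every IR64 drought library, with 85.8, 64.1 and 20.7 in APO controls and 1.53, 0 and 0 in IR64 controls. A further enzyme, RS5, carries a symbol used for raffinose synthase in other plants and was called higher at 19.2, 340 and 495 against 40.4, 63 and 48.1, although its symbol had placed it among ribosomal proteins.

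Several of the genes with the steepest differences were low in IR64 drought or listed at 0 there. OsGS1 (Os03g0712800; chromosome 3, 28822424 to 28826321), a cytosolic glutamine synthetase that reassimilates ammonium, was listed at 0, 706 and 897 nuclear TPM in APO drought and at 0 in the 3 IR64 drought libraries, and no fold is given for it. In controls it was listed at 2.07, 1.52 and 0 in APO and at 0, 0.143 and 0 in IR64, so the message was abundant in APO drought 2 and 3 alone among the 12 libraries. OsJRL, a jacalin-related lectin (chromosome 1, 13903285 to 13904626), stood at 0, 3535 and 5354 in APO and 26.9, 52.2 and 15.1 in IR64 (7.24 ± 0.48, SE, adjusted p = 0.000414). OCPI2, named as a chymotrypsin inhibitor-like protein (chromosome 1, 24392841 to 24393423), stood at 0, 8584 and 5545 in APO and 25, 75.9 and 70.7 in IR64 (7.04 ± 0.50, SE, adjusted p = 0.000414). The library labelled APO drought 1 listed all 3 genes at 0, and the other APO libraries lay far above every IR64 library.

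The metallothionein OsMT2d, a small metal-binding protein, stood at 0, 162 and 288 in APO against 0, 0.705 and 0 in IR64. OsDT11, a short cysteine-rich peptide linked to drought tolerance in rice, was listed at 0, 104 and 161 in APO and at 0 in all IR64 drought libraries. OsEnS-40 was listed at 0, 144 and 76.6 against 0 throughout IR64 drought. The zinc finger gene OsC3H10 was listed at 0, 51.3 and 119 against 0 throughout. These messages were near the detection limit of the IR64 libraries, and OsDT11 was also listed at 0 in every IR64 control and at 0, 0 and 5.15 in APO controls.

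Pathogenesis-related proteins, chitinases and germin-like proteins, which plants make against microbes and also under abiotic stress, were called higher in 16 of 72 tested members and lower in 2, from a list of 108, with a median difference of 1.55 in 5 libraries and 0.93 in 6. The germin-like oxalate oxidase Osoxo4 (Os03g0694000) stood at 92.2, 3834 and 5514 nuclear TPM in APO and 222, 671 and 425 in IR64 (3.52 ± 0.52, SE, adjusted p = 0.00424). OsPR4 stood at 213, 1108 and 1275 against 126, 38.3 and 53.7, a difference of 4.20 ± 0.47 (SE, adjusted p = 0.00138) in which all 3 APO libraries lay above all 3 IR64 libraries. OsPR1b (Os01g0382000) was also above IR64 in all 3 APO libraries, at 39.8, 227 and 67.2 against 0, 0.719 and 0, and its controls showed the same order at 222, 96.5 and 27.9 in APO and 1.9, 2.25 and 10.4 in IR64. The members called lower were OsTLP27 (118, 0 and 4.22 against 83.7, 54.7 and 119) and OsTLP3 (82.8, 20.3 and 24.5 against 81.3, 61 and 87.5), both thaumatin-like.

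Lipid transfer proteins carry lipids to the cell surface. Of 68 genes 40 were tested, 6 were called higher and 2 lower, with a median of 1.83 in 5 libraries and 0.56 in 6. OsLTP1.17 (Os12g0115000) stood at 33.1, 136 and 109 against 1.24, 5.01 and 0 (5.69 ± 0.80, SE, adjusted p = 0.00341), and OsLTPd8 was lower at 124, 3.47 and 12.6 against 91.4, 109 and 101. Many low members of this list were listed at 0 in IR64 drought 1 and 3, the libraries with the smallest depth index, and the part of depth in those differences was not tested. The wax gene OsCER1 was listed at 0, 49.4 and 58.1 in APO and at 0 in IR64 drought. It was the 1 member called higher among 23 tested of 29 in the cuticle and wax list. The 4 called lower there (WSL3, WSL4 (Os02g0565400), WSL and WSL5) carry a symbol that in rice also stands for white stripe leaf, a class of chloroplast defects, and WSL3 stood at 151, 8.63 and 9.67 against 120, 114 and 207.

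**Figure D3:**
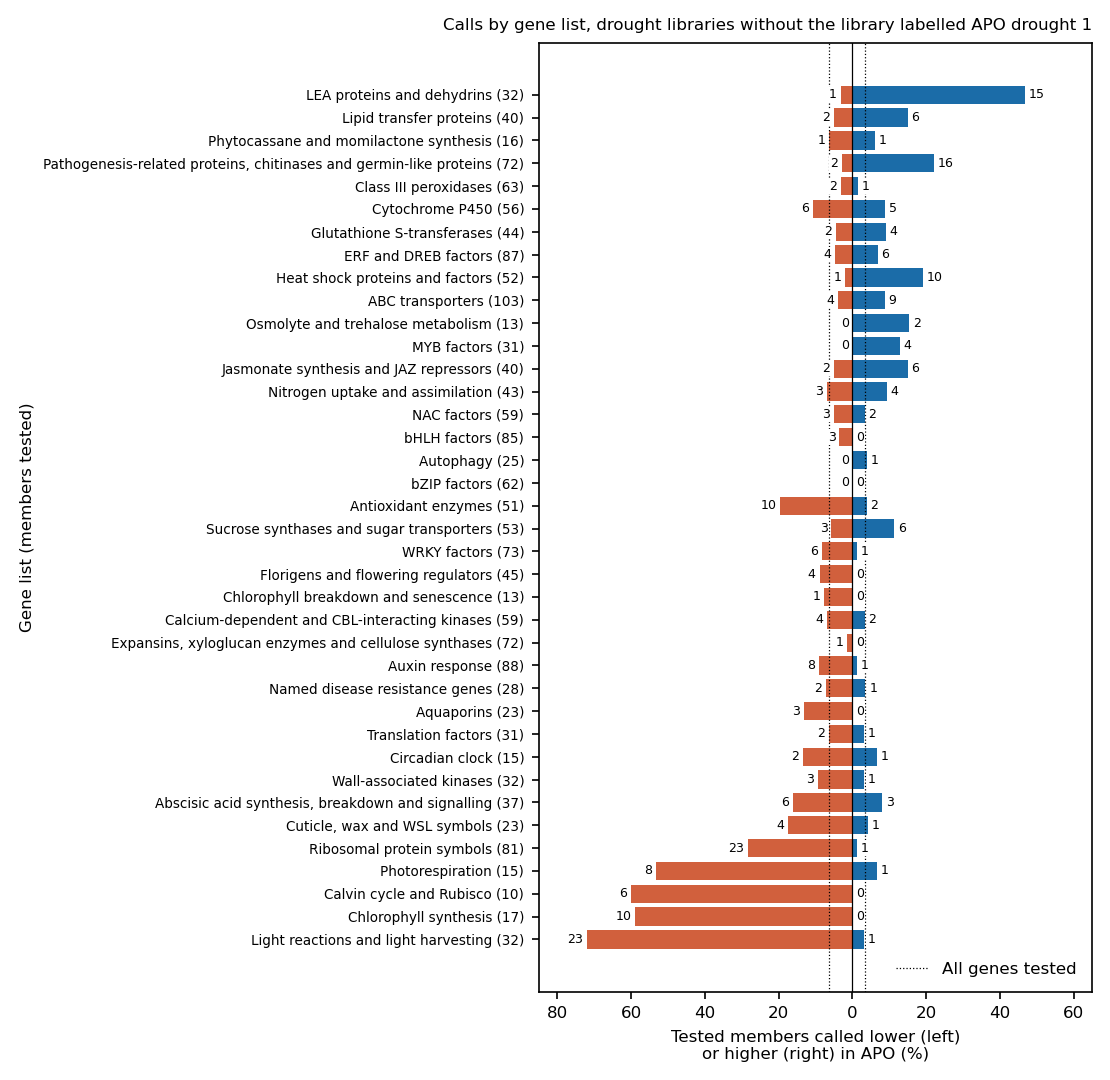
Percent of the tested members of 38 gene lists that were called lower (left) or higher (right) in APO drought, in the 5-library fit. Dotted lines mark the share over all genes, 6.25% lower and 3.37% higher.

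Photosynthesis genes were mostly called lower in APO. Of 33 nuclear genes of the light reactions and light harvesting, 32 were tested, 23 were called lower and 1 higher, and the median difference was -2.94 in 5 libraries and -2.30 in 6. PsaD, the ferredoxin-docking subunit of photosystem I (chromosome 8, 28083386 to 28084239), stood at 1333, 95.2 and 90.8 nuclear TPM in APO and 3273, 2957 and 2129 in IR64. All 3 APO libraries lay below all 3 IR64 libraries, with the library labelled APO drought 1 between the rest of APO and IR64. The difference was -4.87 ± 0.36 (SE, adjusted p = 0.000414) in 5 libraries and -3.59 (adjusted p = 0.5) in 6. CAB2R, a chlorophyll a/b-binding antenna protein, stood at 1084, 68.9 and 33.1 against 2477, 1636 and 897 (-4.98 ± 0.49, SE, adjusted p = 0.000831). The antenna gene cab (Os08g0435900) went another way in the first library, at 5400, 101 and 120 in APO and 3115, 2965 and 2039 in IR64. PsaG, another photosystem I subunit, was lower at 234, 13.1 and 10.1 against 330, 201 and 212 (-4.27 ± 0.34, SE, adjusted p = 0.000437). PsbO of the oxygen-evolving complex was lower at 2143, 513 and 260 against 3569, 3761 and 2640, and petC, the Rieske protein of the cytochrome complex, was lower at 821, 489 and 231 against 1920, 2177 and 1247.

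OsPsbR2 was the light-reaction gene called higher, at 0, 292 and 70.9 against 19.6, 9.92 and 0, while its neighbour PsbR was lower at 2334, 14.3 and 5.42 against 944, 91.5 and 215. These loci sit next to each other on chromosome 7 and may share reads, so their opposite directions are uncertain. Members not called included CAB1R, at 1606, 1241 and 1112 against 4027, 5401 and 2458 (-1.68 ± 0.54, SE, adjusted p = 0.0908). Without a call stood also OsPsbR3, at 2020, 2826 and 2166 against 3435, 3623 and 2345 (-0.32 ± 0.53, SE, adjusted p = 0.731). The list median, as log2(nuclear TPM + 1), was 7.64, 6.20 and 5.67 in APO drought and 8.59, 7.83 and 7.75 in IR64 drought. In controls it was 8.46, 9.04 and 8.23 in APO and 9.53, 9.38 and 8.28 in IR64, so IR64 control 1 and 2 also lay above every APO control.

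Photosynthesis-related genes outside the list also stood among the most negative differences. CP24, a minor antenna protein of photosystem II, was at 136, 0 and 3.69 nuclear TPM in APO against 270, 154 and 115 in IR64 (-6.29 ± 0.66, SE, adjusted p = 0.00108). OsCYP38, a thylakoid immunophilin used in photosystem II assembly, was at 46.7, 0 and 0.728 against 69, 68.1 and 60.6. OsG6PDH4, a glucose-6-phosphate dehydrogenase, was at 134, 0 and 3.33 against 117, 104 and 183. For OsG6PDH4 the library labelled APO drought 1 lay inside the IR64 range, for CP24 it did too, and for OsCYP38 it lay below that range and above the other APO libraries.

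Carbon fixation followed the light reactions. All 10 genes of the Calvin cycle and Rubisco list were tested, and 6 were called lower and 0 higher in limma (0 higher at an unadjusted p under 0.05 too), with a median of -2.30 (-1.28 in 6 libraries). RbcS5, a small subunit of the carbon-fixing enzyme Rubisco (chromosome 12, 11277247 to 11278306), stood at 1004, 20.8 and 42.5 nuclear TPM in APO and 1886, 972 and 988 in IR64 (-5.31 ± 0.43, SE, adjusted p = 0.000468). RbcS3 stood at 2821, 198 and 165 against 5547, 3557 and 1818, and the small-subunit loci of chromosome 12 may share reads. OsPrk, phosphoribulokinase, was lower at 530, 95.3 and 46 against 489, 300 and 253. OsRcaII, named for Rubisco activase, was not called at 884, 2025 and 853 against 1395, 384 and 230 (1.40 ± 0.73, SE, adjusted p = 0.253).

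Photorespiration recycles the product of Rubisco's oxygenation. Of its 15 genes, all tested, 8 were called lower and 1 higher, with a median of -1.35 in 5 libraries and -1.07 in 6. OsGDCH, the H protein of glycine decarboxylase, had the most negative difference among the named genes with a symbol, at 266, 0 and 5 in APO against 567, 424 and 309 in IR64 (-7.43 ± 0.67, SE, adjusted p = 0.000589). OsGLO1, glycolate oxidase, stood at 2519, 317 and 255 against 2737, 2136 and 1741. GLO4 of that family was lower at 537, 74.6 and 59.9 against 589, 459 and 423, whereas GLO3 was the member called higher at 0, 77.2 and 136 against 3.3, 11 and 0. In the library labelled APO drought 1, OsGLO1 and OsPrk lay within or above the IR64 range, and OsGDCH lay just below it.

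Of the chlorophyll synthesis genes, 10 of 17 tested (of 19) were called lower and 0 higher in limma (1 higher at an unadjusted p under 0.05), with a median of -2.36 in 5 libraries and -1.49 in 6. ChlM, the magnesium protoporphyrin methyltransferase, stood at 96.1, 9 and 2.43 against 212, 175 and 198 (-5.06 ± 0.46, SE, adjusted p = 0.000589). OsChlH and OsChlD, subunits of magnesium chelatase, were lower at 579, 61.2 and 32.7 against 440, 289 and 223 and at 228, 8.7 and 7.28 against 99, 58.9 and 75.8. In both, the library labelled APO drought 1 was above all IR64 libraries. GSA, of the pathway's early steps, was lower at 464, 52.1 and 45.1 against 273, 270 and 340, and the ferrochelatase symbol FC2 at 298, 45.1 and 51.7 against 326, 252 and 270. Of 13 chlorophyll breakdown and senescence genes tested, 1 was called lower and 0 higher in limma (2 higher at an unadjusted p under 0.05), with a median of 0.08. The member called was OsSAG13, at 75.4, 16.9 and 17 against 113, 107 and 87.2. SGR, the stay-green protein that starts chlorophyll breakdown, stood at 55.9, 883 and 1080 against 160, 1032 and 494 (1.17 ± 0.67, SE, adjusted p = 0.296).

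Leaf identity was checked with 14 mesophyll marker genes, all of them antenna, photoprotection or Rubisco genes also counted above. Their summed level was 14810, 4040 and 2630 nuclear TPM in APO drought and 21120, 16820 and 9711 in IR64 drought, and none of the 14 was at 0 in all drought libraries. Fewer mesophyll cells in the sample and less of each message per cell cannot be told apart in these bulk libraries. Markers of seed and endosperm were nearly silent, since 24 of 38 were listed at 0 in all 6 drought libraries and 4 passed the filter, and their sum was 260, 349 and 284 in APO and 146, 190 and 236 in IR64. Root markers summed to 360, 181 and 169 in APO and 441, 969 and 599 in IR64, most of it OsNAAT1, which was called lower in APO (320, 94.5 and 124 against 417, 943 and 580). Of 16 root markers tested of 19, OsNAAT1 alone was called, while 13 had a difference above 0 (median 1.42 in 5 libraries). Most root markers were near the floor in IR64 drought, where the median member stood at 0, 0.19 and 0 as log2(nuclear TPM + 1). On the deposited TPM the list median was 0.39. In 9 of the 16 both remaining APO libraries lay above all IR64 libraries (23.7% of all genes), and in 1 both lay below (23.4%). Meristem and dividing-cell markers summed to 1051, 1195 and 1326 against 1413, 1897 and 1274, with 3 of 41 tested (of 61) called lower and 1 higher, the last being Osh36, known in rice as a senescence-associated gene, at 0, 594 and 474 against 13.8, 70.6 and 59.8.

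The guard-cell symbol list, in which 5 of 17 symbols (Amy3) name alpha-amylase genes and not genes particular to guard cells, summed to 35, 214 and 169 nuclear TPM in APO and 37, 53 and 24 in IR64, and of 9 tested of 17 the anion channel gene OsSLAC7 was called, at 0, 127 and 118 against 12.2, 23.9 and 20.1. SLAC1 was not called, at 0, 24.1 and 5.53 against 8.93, 8.2 and 0. Vascular and secondary-wall markers summed to 868, 1653 and 1784 against 1671, 2185 and 1704, with 2 of 46 tested called higher and 4 lower. Among these, the lignin genes OsCAD8B and OsCAD8C were lower in APO and OsPAL (Os02g0626400), a phenylalanine ammonia-lyase, was higher at 75.5, 448 and 513 against 84.3, 180 and 143. The part of cell composition in the differences above was not tested.

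**Figure D4:**
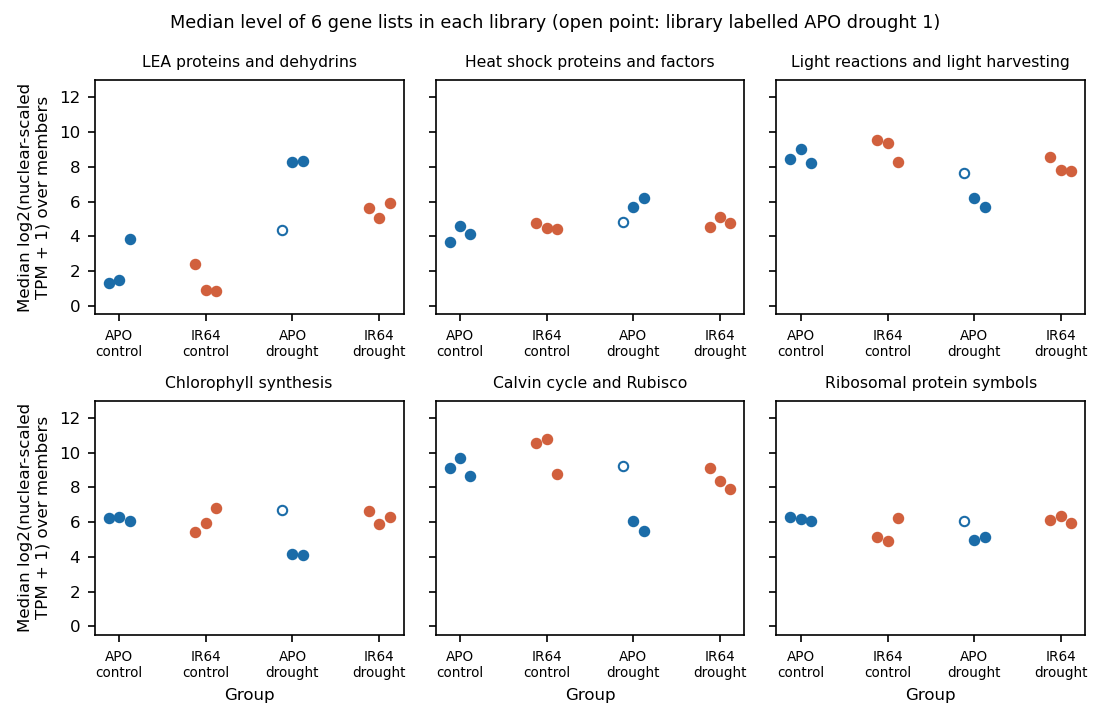
Median level of 6 gene lists in each of the 12 libraries, as log2(nuclear TPM + 1), by group. LEA medians are highest (8.25 and 8.34) and light-reaction, Calvin cycle and chlorophyll synthesis medians lowest in APO drought 2 and 3, while the Calvin cycle median of the library labelled APO drought 1, at 9.24, lies with IR64 drought 1 at 9.12.

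Of 81 ribosomal protein genes tested, 23 were called lower in APO, 1 higher and 57 in neither direction. The list, built from symbols, held 88 genes of the cytosolic and the chloroplast ribosome, with a median difference of -0.99 in 5 libraries and -0.88 in 6. The steepest, rpl12-2 (415, 0 and 12 nuclear TPM against 416, 601 and 291), and OsRPL21 (837, 44.6 and 17.5 against 315, 281 and 543) belong to the chloroplast ribosome and not to the cytosolic one. Cytosolic ribosome genes among the called included RPS27a, at 174, 76.8 and 86.1 against 225, 259 and 233 (-1.54 ± 0.27, SE, adjusted p = 0.00951), and RPL3B, at 131, 89.4 and 92.8 against 212, 284 and 177. For RPS27a and RPL3B, all 3 APO libraries lay below all 3 IR64 libraries. The gene named RPL5 (Os01g0278900) was lower at 171, 8.43 and 8.6 against 212, 177 and 140 (-4.20 ± 0.32, SE, adjusted p = 0.000414). The member called higher was RS5, described above with the compatible solutes. Translation factors had 1 of 31 tested (of 32) called higher and 2 lower, close to the share over all genes, and a median of -0.36 that moved to 0.01 after median-of-ratios scaling. The elongation factor eEF-1beta' was lower at 110, 69.6 and 78.2 against 200, 153 and 140.

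Antioxidant genes were called lower more often than higher: of 51 tested of 54, 10 were called lower and 2 higher. The list as a whole had no shared direction, with 27 members above 0 and 24 below, and a median of 0.29 in 5 libraries and -0.34 in 6. At an unadjusted p under 0.05 in limma, 11 were higher and 13 lower. CATA1, a catalase, stood at 445, 22 and 14 nuclear TPM in APO and 885, 517 and 403 in IR64 (-4.94 ± 0.39, SE, adjusted p = 0.000463). CATC, a catalase of photorespiring leaves, was lower at 2071, 371 and 198 against 1831, 1331 and 1541, and the superoxide dismutase OsSOD4 was lower at 721, 101 and 83.5 against 621, 638 and 563. OsAPX1, the cytosolic ascorbate peroxidase, was higher at 36.3, 298 and 524 against 167, 171 and 111 (1.42 ± 0.36, SE, adjusted p = 0.0407). Glutathione S-transferases, which conjugate toxic compounds, were called higher in 4 and lower in 2 of 44 tested (of 70). OsGSTU40 was the clearest of these at 12.6, 71.3 and 99.3 against 9.51, 10.6 and 13. Class III peroxidases were rarely called, 1 higher and 2 lower of 63 tested (of 114), with a median of 1.49 in 5 libraries and 0.97 in 6. That median rests on values near the floor. As log2(nuclear TPM + 1), the median member stood at 0, 2.88 and 1.24 in APO drought and 0, 0.28 and 0 in IR64 drought. On the deposited TPM the list median was 0.10.

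Sugar genes were called in both directions, the lower calls close to the share over all genes. Of 53 tested of 68, 6 were called higher (3.37% of all genes) and 3 lower (6.25% of all genes). The median was 0.19 in 5 libraries and -0.27 in 6. The neutral invertase OsNIN1, which splits sucrose in the cell, stood at 21.7, 411 and 480 nuclear TPM in APO and 17.8, 57.2 and 42.1 in IR64 (3.62 ± 0.46, SE, adjusted p = 0.00218). The monosaccharide transporter OsMST4 was higher at 25, 468 and 918 against 27.4, 97.6 and 100, and the sucrose transporter OsSUT2 was higher at 53.4, 149 and 232 against 33.6, 50.6 and 63.2. The sucrose synthase SUS1 was lower at 12.8, 2.26 and 6.25 against 26.5, 79.8 and 59.9, with all 3 APO libraries below all IR64 libraries.

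Nitrogen genes were called higher in 4 (3.37% of all genes) and lower in 3 (6.25% of all genes) of 43 tested (of 51). The lower calls were close to the share over all genes. OsGLN2, the plastid glutamine synthetase that captures photorespiratory ammonium, stood at 945, 34.3 and 17.2 nuclear TPM in APO and 554, 356 and 591 in IR64 (-4.27 ± 0.38, SE, adjusted p = 0.000589), opposite to the cytosolic OsGS1 above. OsGLT2, an NADH-dependent glutamate synthase that the list does not hold, was lower at 894, 16.8 and 5.3 against 540, 426 and 801. ASN1, asparagine synthetase, was higher at 28.1, 452 and 349 against 36.9, 84.9 and 85.3. Amt was lower at 248, 14.7 and 11.6 against 257, 167 and 147, but the files do not say whether that symbol stands for an ammonium transporter or for aminomethyltransferase, an enzyme of photorespiration. Aquaporins, the water channels, had 3 of 23 tested (of 36) called lower and 0 higher in limma (4 higher at an unadjusted p under 0.05), and their median of -0.24 turned to 0.14 after median-of-ratios scaling. The plasma membrane channel gene OsPIP2 (Os04g0233400) was lower in all 3 APO libraries at 0, 13.5 and 9.8 against 84.7, 106 and 95.8.

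Transcription factor families gave calls in no shared direction. Their list medians ran from 0.15 (WRKY) to 0.75 (ERF and DREB) in 5 libraries, against 0.02 for all genes. In 6 libraries they ran from -0.33 (WRKY) to 0.20 (MYB), against -0.24 for all genes. The ERF and DREB list had 6 higher and 4 lower of 87 tested (of 129). OsDREB1A and OsDREB1B, factors known for cold and drought responses, were lower at 98.4, 7.32 and 6.01 nuclear TPM against 420, 27.1 and 159 and at 757, 11.1 and 10.3 against 803, 50.7 and 137, with wide spread among the IR64 libraries. NAC factors had 2 higher and 3 lower of 59 tested (of 92), close to the share over all genes. Among them NAC5 was higher at 12, 282 and 478 against 106, 70.1 and 40.4, and ONAC129 was lower at 123, 0 and 0.331 against 95.2, 23.9 and 38.2. WRKY factors had 1 higher and 6 lower of 73 tested (of 99). The immunity regulator WRKY45 was lower at 252, 18.3 and 17 against 152, 55.2 and 100.

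The MYB list had 4 of 31 tested (of 41) called higher and 0 lower in limma (2 lower at an unadjusted p under 0.05), led by OsMyb1R at 15.9, 60.1 and 51.3 against 0, 0.503 and 0, where the cultivars did not overlap. Of 62 bZIP factors tested of 82, the family that binds abscisic acid response elements, limma called 0 in either direction, with 9 higher and 4 lower at an unadjusted p under 0.05. The bZIP factor TRAB1, which acts downstream of the abscisic acid kinases, stood at 114, 16.7 and 31.1 against 19.6, 30.3 and 50.6 (-0.43 ± 0.50, SE, adjusted p = 0.608). The bHLH list had 3 of 85 tested (of 141) called lower and 0 higher in limma (10 higher at an unadjusted p under 0.05), among them PIL15, a phytochrome-interacting factor, at 61, 0 and 2.72 against 56.5, 39.3 and 50.5.

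Jasmonate genes were called higher in 6 and lower in 2 of 40 tested (of 50). JAZ proteins repress jasmonate responses and are themselves induced by the hormone, and OsJAZ2 stood at 59, 242 and 370 nuclear TPM in APO against 9.92, 23.2 and 38.1 in IR64, with no overlap (3.78 ± 0.52, SE, adjusted p = 0.00301). OsTIFY11d of that family was higher at 0, 237 and 257 against 74.6, 41.4 and 29.8. The lipoxygenase gene OsLOX1 (Os02g0194700) was lower at 208, 54.6 and 41.9 against 347, 333 and 234.

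Auxin response genes had 8 called lower and 1 higher of 88 tested (of 140), against 6.25% and 3.37% of all genes, with 41 above and 47 below 0. The list median of -0.11 turned to 0.14 after median-of-ratios scaling. The repressor gene OsIAA17 was lower at 138, 4.44 and 12.6 against 275, 138 and 172 (-4.45 ± 0.47, SE, adjusted p = 0.00108), and ARF16, an auxin response factor, was higher at 0, 69.2 and 110 against 3.26, 4.65 and 6.55. Calcium-dependent and CBL-interacting kinases had 2 higher and 4 lower of 59 tested (of 73), close to the share over all genes. OsCIPK10 was lower at 224, 7.71 and 11.3 against 134, 131 and 145, and CIPK15, a kinase of sugar and low-oxygen signalling, was higher at 30.2, 120 and 155 against 16.7, 20.2 and 23. ABC transporters were called higher in 9 and lower in 4 of 103 tested (of 126), with OsABCF6 at 82.9, 1360 and 809 against 77.2, 56.1 and 39.3, and cytochrome P450 genes in 5 and 6 of 56 tested (of 89).

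Clock and flowering genes gave few calls. The clock list had 1 higher and 2 lower of 15 tested (of 16). The pseudo-response regulator OsPRR73 was lower at 398, 50.3 and 57.4 against 229, 213 and 297 and ELF4_chr.11 was lower, while LHY was higher at 0, 158 and 187 against 13.8, 16 and 40.6. The flowering list had 4 lower and 0 higher in limma of 45 tested (of 76), with 5 higher at an unadjusted p under 0.05, among them Hd2, a repressor of flowering in long days, at 127, 8.65 and 11.8 against 79.9, 79.8 and 65.3, and the photoreceptor gene PHYA. The hour of sampling is not given in the labels. Autophagy genes had 1 of 25 tested (of 28) called higher and 0 lower in limma (1 lower at an unadjusted p under 0.05), namely OsATG13a. Expansins, xyloglucan enzymes and cellulose synthases, which loosen or build the wall, had 1 of 72 tested (of 123) called lower and 0 higher in limma, with 4 higher at an unadjusted p under 0.05. The member was OsCesA2, at 60.1, 0 and 4.16 against 58.1, 38 and 50.8.

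Under drought, some loci were present in one cultivar and listed at 0 in the other. With all 6 libraries, 1 gene was at 10 nuclear TPM or more in every APO library and at 0 in every IR64 library, Os12g0265800 (48, 12.6 and 13.4), and 9 showed the reverse. All 9 of those were also lower in APO controls than in every IR64 control, against 4.73% of the genes tested with 5 libraries. Of the 9, 5 were listed at 0 in every APO control. Os05g0103800, for instance, was listed at 0 in the 3 APO drought and 3 APO control libraries and at 65.2, 52.7 and 76.6 in IR64 drought. With 5 libraries, 49 genes were at 10 or more in APO and 0 in IR64 drought. Only 10 of the 49 were also listed at 0 in every IR64 control. Of the 49, 25 did not overlap in the same direction in the controls, against 10.4% of all genes tested. The values of 0 in IR64 drought 1 and 3 carry less weight, as given above, and the part of depth in this count was not tested. The reverse held for 20 genes, 18 of them with the same direction in the controls, against 4.73% of all genes tested. Only 5 of the 20 were also listed at 0 in every APO control. In the library labelled APO drought 1, 11 of these 20 exceeded 1 nuclear TPM and the other 9 were at 0.

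Receptor genes known to vary between cultivars were among these. The wall-associated kinase OsWAK123 stood at 36.8, 0 and 0 nuclear TPM in APO and 33.7, 37.8 and 53.2 in IR64, and its controls at 0, 0.962 and 2.97 against 31.7, 56.5 and 196. Wall-associated kinases had 1 higher and 3 lower of 32 tested, from 74 of which 24 were listed at 0 in all 6 drought libraries. The blast resistance gene Pi37(t) stood at 14.5, 0 and 0 against 15, 11.3 and 24. Of 28 named resistance genes tested (of 42), 1 was called higher and 2 lower. In the diterpenoid phytoalexin list, 16 tested of 25, CYP76M2 was higher at 0, 190 and 316 against 2.98, 22.6 and 11.7 and Oscyp71Z8 was lower at 0, 0 and 5.78 against 24.8, 25.1 and 21.6.

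The control libraries, which took no part in choosing or fitting the drought calls, show how much of the difference was there without drought. Of the 795 genes called higher in APO drought, 124 (15.6%) were also higher in all 3 APO controls than in all 3 IR64 controls, against 10.4% of all tested genes, and 61 (7.67%) had the reverse order, against 4.73%. Of the 1477 called lower, 106 (7.18%) were lower in controls as well, against 4.73%, and 151 (10.2%) were higher, against 10.4%. Without APO control 3 the same order held for 159 of the higher genes (20.0%, against 16.8% of all genes) and the reverse for 114 (14.3%, against 8.89%). Of the lower genes, 140 were lower in those controls too (9.48%, against 8.89%) and 255 were higher (17.3%, against 16.8%). Most called genes had overlapping cultivars in the 6 controls (610 of the higher and 1220 of the lower). The median level of the higher-called genes, as log2(nuclear TPM + 1), was 6.78 and 6.92 in APO drought 2 and 3, 4.30 to 4.61 in IR64 drought and 3.39 to 4.20 in the controls. That of the lower-called genes was 3.68 and 3.73 in APO drought 2 and 3, 6.09 to 6.42 in IR64 drought and 4.86 to 6.39 in the controls. In the library labelled APO drought 1 these medians were 0 and 6.39.

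A direct test of the cultivar difference in drought minus that in control was made in one fit of 10 libraries, without the library labelled APO drought 1 and APO control 3, whose nuclear share was 5.04%. It called 1183 of 22812 genes (5.19%), 351 with a more positive and 832 with a more negative difference in drought. Over all 12 libraries limma called 0 of 26192, with 2789 at an unadjusted p under 0.05. By this test OsJRL (6.96 ± 1.03, SE, adjusted p = 0.00994), RAB21 (Os11g0454000; 4.74 ± 0.88, SE, adjusted p = 0.0206) and HSP70 (Os03g0277300; 5.35 ± 0.70, SE, adjusted p = 0.00763) differed between the cultivars more in drought than in control. PsaD (-4.83 ± 0.59, SE, adjusted p = 0.00668), RbcS5 (-6.00 ± 0.69, SE, adjusted p = 0.00572) and OsGDCH (-7.75 ± 0.88, SE, adjusted p = 0.00571) did so in the other direction. P5CS2 (3.16 ± 0.86, SE, adjusted p = 0.0598) and OsGLN2 (-3.05 ± 0.90, SE, adjusted p = 0.0736) missed the threshold. IR64 control 1 and 2 differ from IR64 control 3 in many photosynthesis genes, such as PsaE at 584, 658 and 1326 nuclear TPM, and the part of that spread in the result was not tested.

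**Figure D5:**
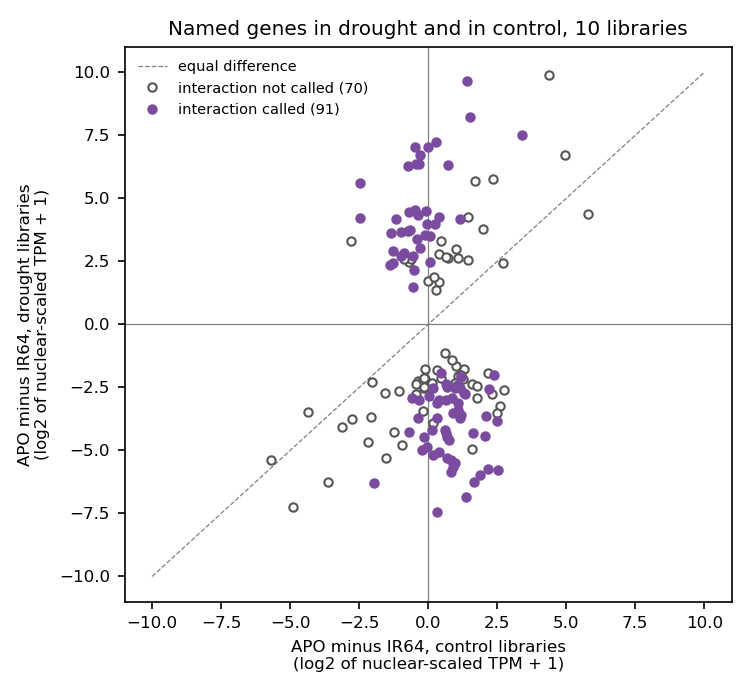
Log2 difference between APO and IR64 in drought (5 libraries, vertical axis) against that in control (APO control 1 and 2 against IR64 control 1 to 3, horizontal axis) for 161 named genes, marked by whether the difference of differences was called (91) or not (70). Of 62 genes above 0 in drought 29 are above 0 in control too, and of 99 below 0 in drought 32 are below 0 in control too. The same test called 5.19% of all genes. The plotted genes were chosen for their drought calls, and the drought libraries enter both, so nothing is read from the count of 91.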

How the data were processed

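Polysome-bound mRNA of leaves was sequenced by the submitters, and 1 table of gene abundances was deposited per library. Per the file headers each table pairs gene IDs and symbols with coordinates, coverage, FPKM and TPM. The deposited TPM sums to 1000000 over all annotated genes, ribosomal RNA and organelle genes included. The deposited FPKM and coverage (a signal per base) served only as a relative depth index. Versions listed per the submitters' processing notes are 2.11.38 for DESeq2, 1.3.4 for StringTie and 2.1.0 for HISAT2, without saying what each did, and the genome build is not given in the sources used here. Coordinates and symbols are those of the files.

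TPM was rescaled to 1000000 over 37849 nuclear loci, filtered at a mean of 1 over the libraries of a fit and transformed as log2(value + 1), so fold changes of low genes are understated. The test was limma 3.58.1 (R 4.3.3), moderated with mean-dependent variance and Benjamini-Hochberg adjustment over all tested genes at 0.05, and was tested on simulated data. No count table was used here and no count test was run. Python 3.11.15, pandas 2.3.3 and scipy 1.17.1 did the remaining steps. Read depth is unknown, and the number of libraries limits precision.

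Gene lists were built from symbol patterns, held 38 lists and 6 marker lists, and were trimmed by symbol alone. The libraries were taken by their labels, while the lists, their members and the 5-library fit were chosen with earlier results of these data known. The naming rule, which gave 165 genes with 5 libraries, took the 10 genes with the largest difference and a symbol in each direction among called genes whose groups do not overlap, the 3 largest without a symbol, up to 4 called members of each list by smallest adjusted p, and the 5 smallest p where a fit calls fewer than 5. The text describes those that carry a result, the plots hold others, and genes outside the rule were chosen after their values were seen. The alternatives were pseudocounts of 0.1 and 5, no filter and a filter at 5, deposited TPM, median-of-ratios and quantile scaling, a fit of 4 group means, a replicate block, library weights, and leaving out each library.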

Additional observations from a re-analysis of the deposited data

Results flagged for a closer look

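For 22 of the 26 genes with the most positive or most negative difference between the cultivars in drought, the difference itself changed between control and drought by limma's test in 10 libraries, which called 5.19% of all genes. The 26 were chosen for their drought difference, so nothing is read from that count. Each value below is the drought difference minus the control difference on the log2 scale. The values were 8.23 for OsGS1 (Os03g0712800), 7.53 for OCPI2, 7.04 for OsEnS-40, 7.03 for OsDT11, 7.03 for OsZFP (Os01g0839100) and 6.96 for OsJRL. They were 6.80 for OsLEA18, 6.74 for Os06g0473800, 6.66 for Os09g0552600, 5.59 for OsC3H10 and 4.13 for OsMT2d. In the other direction the value was -8.32 for Lhca6, a photosystem I antenna protein, -8.21 for rpl12-2, -7.93 for Os03g0284400, -7.91 for OsGLT2, -7.86 for OsG6PDH4 and -7.75 for OsGDCH. It was -6.69 for PsbY, a photosystem II subunit, -6.56 for OsCYP38, -6.47 for PPX, named for protoporphyrinogen oxidase, -6.21 for OsOSC4 (Os02g0140500) and -4.32 for CP24.

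OsGS1, OsEnS-40, OsDT11 and OsC3H10 have a group listed at 0, so their values depend on the pseudocount of 1 and give no fold. Other values above depend on it too. OsMT2d (0, 0.705 and 0) and Os06g0473800 (0, 0.973 and 0) were near 0 nuclear TPM in IR64 drought. Lhca6, rpl12-2, Os03g0284400, OsG6PDH4, OsGDCH, OsCYP38, PPX, OsOSC4 and CP24 were listed at 0 in APO drought 2. In a fit of all 12 libraries none of the genes above passed. The screen for a single outlying value needs at least 4 samples and was not applied to single genes in groups of 3. Whole libraries were compared by typical genes, nuclear share and correlation above.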

How the results depend on the processing

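With 6 libraries, limma called 0 genes under 7 scaling, filter and pseudocount alternatives and under the replicate block, 46 in the fit of 4 group means and 2891 with library weights. Leaving out 1 library gave 0 to 2272 calls, the highest without the library labelled APO drought 1. With 5 libraries the 2272 calls became 1503 with no filter, 18 on deposited TPM and between 1627 and 2815 under the other settings, and 0 (without APO drought 2) to 3317 (without APO drought 3) when 1 more library was left out. The cause of each change was not tested, beyond the fewer libraries and the larger number of genes tested without a filter (33389). From the 6-library fit, 4 genes took the opposite sign with a call: OsLEA25 moved from -0.39 to 3.06 with library weights and to between -2.58 and 3.72 when 1 library was left out. The same values were -0.23, 2.09 and between -1.58 and 2.42 for OsTIFY11d, and -0.51, 2.30 and between -1.96 and 2.16 for MYB. OsERF#042 moved from -0.67 to between -1.94 and 1.70 when 1 library was left out. In each, the highest value came without the library labelled APO drought 1. Of the 165 named genes in the 5-library fit, 151 lost their call on deposited TPM, 165 without APO drought 2 and 82 without APO drought 3, with their direction kept.

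The shared replicate numbers gave no sign of pairing, but a check in groups this small cannot exclude it. The deviations of same-numbered libraries correlated at 0.055, 0.062 and -0.186 in 6 libraries and at -0.153 and -0.160 in 5. In the 6-library check APO drought 3 correlated best with IR64 drought 2 (0.272). In the 5-library check the deviations of the remaining APO libraries mirror each other, so its values are not separate evidence. With the replicate block 0 genes were called in 6 libraries and 2291 in 5.

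Depth limits low genes most, since the library labelled APO drought 1 lists 9976 loci above 0 and IR64 drought 3 lists 15357. With 2 APO libraries in the 5-library fit, the spread within APO rests on a single pair.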

Other observations

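Os06g0163450, a locus with no symbol on chromosome 6, had the most positive difference of all named genes and varied widely within APO. It was listed at 0, 375 and 2341 nuclear TPM in APO drought, at 0, 418 and 0 in APO control, and at 0 in all 6 IR64 libraries. Os06g0347100 was listed at 136, 0 and 0 in APO drought and 153, 108 and 214 in IR64 drought, with 0, 4.25 and 6.82 in APO control and 40.7, 60.0 and 127 in IR64 control, so the library labelled APO drought 1 alone among the APO libraries lay in the IR64 range.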
